A study of Mus musculus with 6 samples.

Results

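The SLC25 genes encode the mitochondrial carrier family, and the members described here are the 66 probes whose gene symbol is Slc25a followed by a number, 66 of the 46611 probes analysed and standing for 44 genes. They were measured in RNA from the quadriceps femoris, a thigh muscle, of mice on a C57BL/6 background. Of the 6 arrays, 3 carried RNA of transgenic mice labelled RORalpha1delDE, whose transgene encodes a truncated human RORalpha1 without its E region and part of its hinge. The human skeletal alpha-actin promoter drives that transgene, so it is meant for skeletal muscle fibres and not for the other cells of the tissue. The other 3 arrays carried RNA of wild-type mice with no transgene. All mice received a diet with 4.6% fat under a 12 h light cycle, were fasted overnight and were killed in the morning, and their ages and sexes are not given in the sources used here. In a bulk tissue, fewer cells of a type and less RNA per cell cannot be told apart.

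Mitochondrial carriers are small proteins of 3 similar repeats that sit mostly in the inner mitochondrial membrane. They exchange ATP for ADP, bring in phosphate, and pass carboxylates, amino acids, cofactors and iron between the cytosol and the matrix. In muscle the ATP/ADP and phosphate carriers serve oxidative ATP supply, and the aspartate and oxoglutarate carriers serve the malate-aspartate shuttle that brings in reducing equivalents. RORalpha is a nuclear receptor that binds DNA as a monomer at an AGGTCA half-site preceded by A and T bases.

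The 250 bases before the start site are shown for the measured carriers with the smallest p between genotypes that have a window, Slc25a30 and Slc25a1, and for the 3 measured carriers whose window holds the half-site. Sequences are from RefSeq (GRCm38.p6), run 5′ to 3′ on the gene's own strand, and carry AGGTCA, read on either strand, in capitals.
Slc25a30, chr14:75787038-75787287, minus strand: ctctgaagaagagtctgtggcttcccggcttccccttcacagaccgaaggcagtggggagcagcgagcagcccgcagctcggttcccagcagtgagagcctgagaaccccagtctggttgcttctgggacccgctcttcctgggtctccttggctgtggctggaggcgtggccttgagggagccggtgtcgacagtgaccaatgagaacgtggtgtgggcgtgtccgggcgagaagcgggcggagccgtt
Slc25a1, chr16:17928220-17928469, minus strand: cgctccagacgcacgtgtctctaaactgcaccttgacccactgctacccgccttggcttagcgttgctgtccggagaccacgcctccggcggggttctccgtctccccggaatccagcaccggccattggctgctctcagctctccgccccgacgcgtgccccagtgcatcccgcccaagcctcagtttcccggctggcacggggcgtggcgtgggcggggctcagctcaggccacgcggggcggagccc
Slc25a39, chr11:102407518-102407767, minus strand: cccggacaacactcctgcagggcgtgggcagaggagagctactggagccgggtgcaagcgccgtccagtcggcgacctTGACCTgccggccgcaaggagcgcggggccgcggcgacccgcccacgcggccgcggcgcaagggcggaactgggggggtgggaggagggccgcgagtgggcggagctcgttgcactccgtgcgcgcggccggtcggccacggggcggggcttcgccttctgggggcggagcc
Slc25a45, chr19:5877572-5877821, plus strand: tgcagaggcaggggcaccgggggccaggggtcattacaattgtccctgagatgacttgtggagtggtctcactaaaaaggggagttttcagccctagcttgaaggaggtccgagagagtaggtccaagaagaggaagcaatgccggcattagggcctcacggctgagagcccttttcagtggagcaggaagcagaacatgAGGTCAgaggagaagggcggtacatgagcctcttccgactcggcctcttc
Slc25a47, chr12:108850879-108851128, plus strand: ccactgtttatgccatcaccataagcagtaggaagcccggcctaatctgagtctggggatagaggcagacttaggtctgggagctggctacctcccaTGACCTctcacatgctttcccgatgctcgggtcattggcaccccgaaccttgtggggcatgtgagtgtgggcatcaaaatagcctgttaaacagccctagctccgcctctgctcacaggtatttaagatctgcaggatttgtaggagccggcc
RefSeq windows were found for 34 of the 44 carrier genes. AGGTCA stood on either strand in 4 of the 34 (11.8%), namely Slc25a34, Slc25a39, Slc25a45 and Slc25a47, against 15.8% of 27025 genes with a window. The longer ROR response element, the half-site directly preceded by AANT and sought on both strands, stood in 0 of the 34 carrier genes and in 0.211% of all genes. These are matches of letters only. Of the 3 measured carriers with the half-site, Slc25a39, Slc25a45 and Slc25a47 differed between genotypes by -0.10 ± 0.22, 0.11 ± 0.27 and -0.21 ± 0.28 on the log2 scale (SE).

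Arrays 1 and 2 of each genotype were counted as 1 sample. Over 525 genes with several bright probes, the differences between arrays 1 and 2 at 2 probes of the same gene were nearly unrelated (r = 0.0316 transgenic, r = 0.0341 wild type), whereas differences between array 3 and either of them gave r from 0.703 to 0.764. Each genotype therefore has n = 2, the mean of arrays 1 and 2 and array 3, and means ± SD are over these. No label ties an array to a mouse of its own, and the p-values cover the spread among these samples alone, some of which may be technical. On the single chip the transgenic arrays took the final positions and wild type the opening ones, so that position and genotype cannot be told apart. Between 13979 and 14887 probes were detected per array. All 9 measured skeletal muscle markers, among them Acta1, Ckm and Mb, were detected on every array, and their summed linear signal was 294000 to 297000 in the transgenic samples, against 278700 to 285700 in wild type. Other markers separated samples: the slow-fibre sum was 10110 in transgenic array 3, against 128400 in transgenic arrays 1 and 2 and 84620 to 93010 in wild type. The 2 adipocyte markers measured, Adipoq and Cidec, summed to 906.1 in transgenic arrays 1 and 2 and 3286 in transgenic array 3, against 3415 and 5125 in wild type.

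Of the 66 carrier probes, 34 passed the filter of detection on at least 3 of the 6 arrays, and they covered 29 genes. The other 32 probes gave signals between 109.4 and 209.7, and 23 of them were detected on no array. For 15 genes no probe passed. Among these, no array detected a probe of Slc25a13 (the liver aspartate/glutamate carrier citrin), Slc25a31 (the ATP/ADP carrier of germ cells), Slc25a16, Slc25a21, Slc25a34, Slc25a40, Slc25a41, Slc25a42, Slc25a43 or Slc25a48, while probes of Slc25a2, Slc25a18, Slc25a23, Slc25a51 and Slc25a53 were detected on 1 or 2 arrays. No difference is given for these 15 genes.

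No carrier passed the test between genotypes. At an adjusted p under 0.05 from limma with Benjamini-Hochberg adjustment over all 14420 probes kept, 0 of 34 carrier probes were called, beside a background of 0.00693% over all probes (1 probe, lower). At an unadjusted p under 0.05, 6 carrier probes stood out, 1 higher and 5 lower in transgenic muscle, which is 17.6% of the 34 against 7.64% of all probes, 3.49% higher and 4.15% lower. The 6 are 2 probes of Slc25a30 and 1 each of Slc25a1, Slc25a35, Slc25a5 and Slc25a15. Those of Slc25a1 and Slc25a35 and the dimmer one of Slc25a30 were not detected on every transgenic array. Where detection on all 6 arrays was required, 3 of 28 carrier probes had an unadjusted p under 0.05 by limma. No share over all probes is given for that filter. Taking the brightest kept probe of each of the 29 genes, 15 differences were above 0 and 14 below, with a median of 0.002, against a median of 0.04 over 8397 genes. The 2 samples of one genotype lay wholly above or below those of the other for 11 carrier genes, 5 higher and 6 lower in transgenic muscle. Over probes that count was 14 of 34, or 41.2%, with 6 higher and 8 lower in transgenic muscle, and the background was 39.6% of all probes, 21.6% higher and 18.1% lower. Over the 6 single arrays, 9 carrier probes did not overlap, 3 higher and 6 lower in transgenic muscle, which is 26.5% against 21.8% of all probes, 12.1% higher and 9.76% lower. If all 6 arrays are counted as independent, Slc25a30 alone among the carriers passed (adjusted p = 0.0339), with 54 calls over all probes (0.374%). With median centring in place of quantile normalisation 10 carrier genes lay above 0 and 19 below, and the median of all genes was then -0.03. In the plot of differences by substrate each of the 29 genes is shown with its error.

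**Figure D1:**
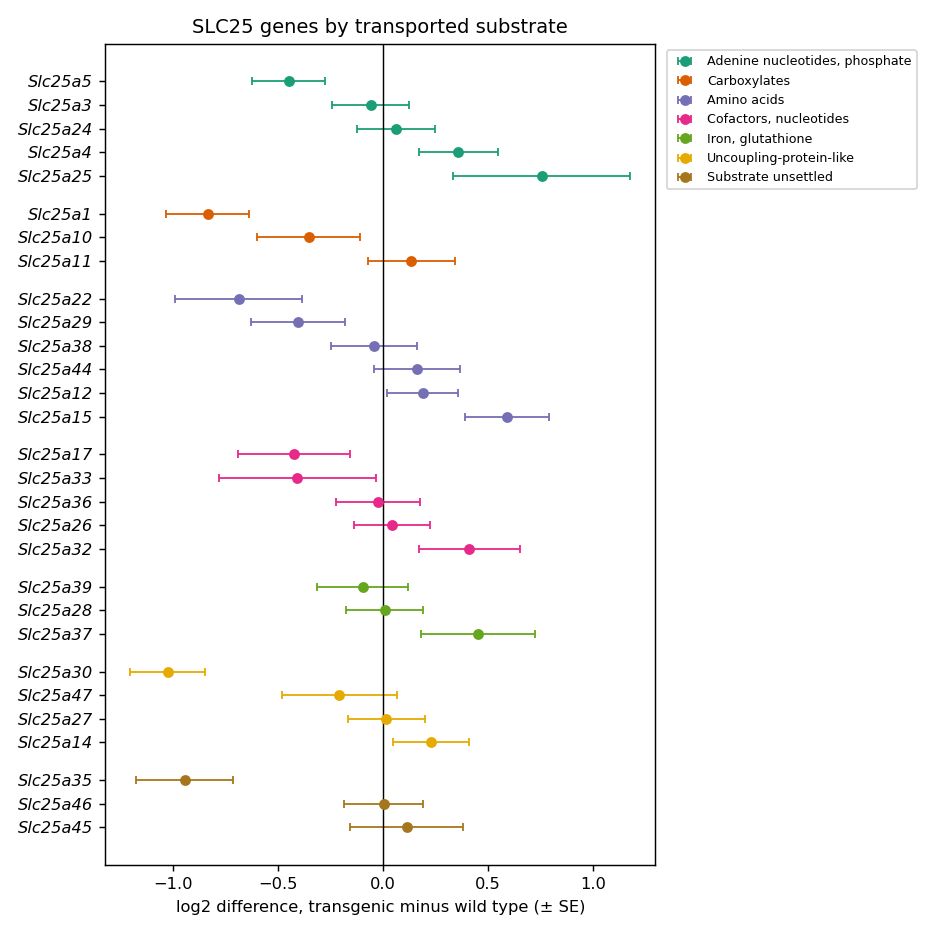
Log2 difference, transgenic minus wild type, with its SE from limma for the 29 carrier genes with a kept probe, grouped by transported substrate. Values ran from -1.03 for Slc25a30 to 0.76 for Slc25a25, and 15 of the 29 genes lay above 0 and 14 below.

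Of the carriers grouped as uncoupling-protein-like, Slc25a14, Slc25a27 and Slc25a30 resemble the uncoupling proteins in sequence, and Slc25a47 was listed with them. Slc25a30, known as kidney mitochondrial carrier protein 1, read 7.19, 7.49 and 7.16 on transgenic arrays 1, 2 and 3, against 8.31, 8.30 and 8.25 on the wild-type arrays (normalised log2 intensity). All transgenic values lay below all wild-type values, and the gap was wider than the spread inside either genotype. The means were 7.25 ± 0.12 in transgenic and 8.28 ± 0.04 in wild-type muscle (SD, n = 2 each), a difference of -1.03 ± 0.18 (SE, unadjusted p = 0.00111, adjusted p = 0.412 by limma), or 2.04-fold lower. A second, dimmer probe of Slc25a30 read 5.25, 6.05 and 6.68 on the transgenic arrays, of which 2 detected it, against 7.44, 7.32 and 7.37 in wild type, and differed by -1.21 ± 0.34. The 2 probes share the direction, although the dim one spread widely among transgenic arrays. With the deposited log2 values the brighter probe differed by -0.63 (adjusted p = 0.345) and without background correction by -0.62, and over all alternatives its adjusted p ran from 0.0339 to 1.00.
The other carriers of this group lay close together. Slc25a14 (also called UCP5) averaged 6.86 ± 0.17 in transgenic and 6.63 ± 0.05 in wild-type muscle, and read 6.70, 6.78 and 6.97 on transgenic arrays, against 7.07, 6.12 and 6.66 on wild-type arrays, so that wild-type array 1 lay above all transgenic ones. Slc25a27 (UCP4) differed by 0.02 ± 0.18. Slc25a47, a carrier known from liver, read 7.62, 7.92 and 7.08 in transgenic and 7.82, 7.78 and 7.47 in wild-type muscle, with overlapping groups.

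The ATP/ADP carriers exchange matrix ATP for cytosolic ADP. Slc25a5, the isoform known from dividing and non-muscle cells (ANT2), read 11.83, 11.92 and 11.73 on transgenic arrays, against 12.23, 12.35 and 12.22 on wild-type arrays. The groups did not overlap, and the difference was -0.45 ± 0.18 (unadjusted p = 0.0418, adjusted p = 0.647 by limma), or 1.37-fold lower. Slc25a4, the heart and muscle isoform (ANT1), read 11.42, 11.49 and 11.74 on transgenic arrays, against 11.21, 11.23 and 11.26 on wild-type arrays. It too did not overlap, in the opposite direction, with a difference of 0.36 ± 0.19 (adjusted p = 0.694), which was 0.22 without transgenic array 3. The log2 reading of Slc25a4 minus that of Slc25a5 was -0.41, -0.42 and 0.01 on transgenic arrays, against -1.01, -1.12 and -0.96 on wild-type arrays. Because the readings come from different probes, only the shift of 0.81 between genotypes carries information, and this contrast was chosen after the values were seen and was not tested.
Slc25a3, which imports the phosphate used for ATP synthesis, read 14.53, 14.55 and 14.38 in transgenic and 14.77, 14.46 and 14.43 in wild-type muscle, and its groups overlapped. Its difference was -0.06 ± 0.18. The calcium-regulated ATP-Mg/phosphate carriers were Slc25a24, which differed by 0.06 ± 0.19, and Slc25a25. Slc25a25 had the largest positive difference of the family, 0.76 ± 0.42 (adjusted p = 0.71), yet it read 10.32 and 10.36 on transgenic arrays 1 and 2 and 9.15 on array 3, against 8.62, 8.74 and 9.30 in wild type. Transgenic array 3 lay inside the wild-type range. Without it the difference was 1.35 (adjusted p = 0.757, the lone transgenic sample being assumed to vary like wild type).

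Carboxylate carriers move citrate, malate and oxoglutarate across the inner membrane. Slc25a1, the citrate carrier that supplies cytosolic acetyl-CoA for fatty acid synthesis, read 5.78, 5.76 and 6.13 on transgenic arrays, against 6.83, 6.81 and 6.75 on wild-type arrays. The groups did not overlap, and the means were 5.95 ± 0.25 and 6.78 ± 0.05 (SD, n = 2 each). The difference was -0.84 ± 0.20 (unadjusted p = 0.00553, adjusted p = 0.569 by limma), or 1.79-fold lower. Only 1 of the 3 transgenic arrays detected the probe, so its transgenic level lay close to background, and with the deposited log2 values the difference was -0.31. Acly, which splits the exported citrate, was at 10.15 and 9.95 in the transgenic samples, against 10.57 and 10.39 in wild type, a difference of -0.43 ± 0.19 (adjusted p = 0.66).
Slc25a10, the dicarboxylate carrier, differed by -0.36 ± 0.25 with overlapping groups. Slc25a11, the oxoglutarate carrier of the malate-aspartate shuttle, read 12.69, 12.71 and 12.48 in transgenic and 12.21, 12.35 and 12.63 in wild-type muscle, and its 2 probes differed by 0.14 ± 0.21 and 0.12 ± 0.24. The brighter one differed by 0.24 without transgenic array 3 and by 0.31 without wild-type array 3. Its partner Slc25a12 (aralar), the aspartate/glutamate carrier of the shuttle in muscle, read 12.30, 12.30 and 12.28 in transgenic and 12.23, 12.00 and 12.09 in wild-type muscle. Those groups did not overlap, but the difference of 0.19 ± 0.17 was about the size of its error.

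**Figure D2:**
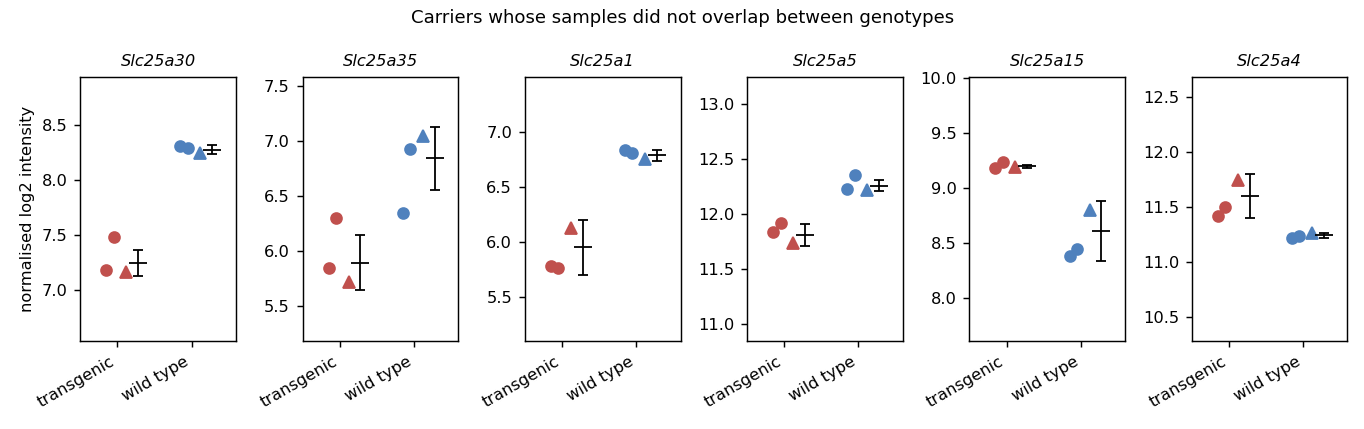
Normalised log2 intensity of 6 carriers on each array (circles, arrays 1 and 2; triangles, array 3; bar and whiskers, mean ± SD of the 2 samples), transgenic left and wild type right, each panel spanning the same log2 range. The transgenic values of Slc25a30, Slc25a1 and Slc25a5 lie below all wild-type values, and those of Slc25a15 and Slc25a4 above.

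Among the other amino acid carriers, Slc25a15, which exchanges ornithine and citrulline for the urea cycle, read 9.18, 9.24 and 9.19 on transgenic arrays, against 8.38, 8.45 and 8.80 on wild-type arrays, with no overlap. Its difference was 0.59 ± 0.20 (unadjusted p = 0.0264, adjusted p = 0.638 by limma), or 1.51-fold higher, and it was the 1 carrier probe with an unadjusted p under 0.05 in that direction.
Slc25a22, a glutamate carrier, read 10.43, 10.46 and 9.84 on transgenic arrays, against 11.04, 11.26 and 10.51 on wild-type arrays. Averaged samples did not overlap by a narrow margin, since transgenic arrays 1 and 2 lay just under wild-type array 3, and the difference of -0.69 ± 0.30 (adjusted p = 0.661) was close to the step of -0.60 and -0.64 between array 3 and the other arrays inside each genotype. Leaving out array 3 gave -0.39 for the transgenic and -1.01 for the wild-type array. Slc25a29, a carrier of basic amino acids, read 6.56, 6.34 and 6.53 in transgenic and 7.05, 6.24 and 7.14 in wild-type muscle and differed by -0.41 ± 0.22. That difference was -0.20 without wild-type array 1, -0.16 without wild-type array 3 and -0.18 with the deposited log2 values. Its averaged samples did not overlap, but wild-type array 2 was the lowest of the 6 arrays. Slc25a44, a carrier of branched-chain amino acids, read 9.09, 9.21 and 9.34 in transgenic and 9.11, 9.41 and 8.91 in wild-type muscle, with overlap. Slc25a38, which takes glycine to haem synthesis, differed by -0.04 ± 0.20, while its dimmer probe differed by 0.25 ± 0.20.

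Cofactor and nucleotide carriers held 5 measured genes with a median difference of -0.02. Slc25a33, a pyrimidine nucleotide carrier, read 10.16, 10.27 and 10.07 on transgenic arrays, against 11.21, 11.04 and 9.98 on wild-type arrays. Wild-type arrays 1 and 2 stood above the other 4 arrays, and wild-type array 3 was the lowest of all. The difference was -0.41 ± 0.37 (adjusted p = 0.795), and -0.98 without wild-type array 3. Slc25a17, which carries coenzyme A and other cofactors across the peroxisomal membrane, read 8.56, 8.85 and 8.38 in transgenic and 9.35, 9.24 and 8.65 in wild-type muscle. It too was highest on wild-type arrays 1 and 2, and differed by -0.42 ± 0.27. That difference was -0.26 without transgenic array 3 and -0.75 without wild-type array 3. Slc25a32, linked to folate and FAD, read 8.16, 7.71 and 8.18 in transgenic and 8.13, 7.71 and 7.38 in wild-type muscle. Its difference was 0.41 ± 0.24, 0.14 without wild-type array 3 and 0.23 with the deposited log2 values. Slc25a26, the S-adenosylmethionine carrier, differed by 0.04 ± 0.18, and Slc25a36, a second pyrimidine carrier, by -0.02 ± 0.20 at its brighter probe and -0.32 ± 0.18 at its dimmer one.
The mitoferrins bring iron to the matrix. Slc25a37 (mitoferrin 1, known from red cell precursors) read 7.85, 8.24 and 8.59 in transgenic and 7.57, 7.64 and 8.12 in wild-type muscle, and averaged samples overlapped. Its difference of 0.45 ± 0.27 was 0.18 without transgenic array 3, 0.71 without wild-type array 3 and 0.28 with the deposited log2 values. The 3 measured erythroid markers differed by between -0.24 and 0.11 and summed to 14740 and 16190 in the transgenic samples, against 18220 and 12510 in wild type; their part in the result was not tested. Slc25a28 (mitoferrin 2) read 11.84, 11.82 and 11.60 in transgenic and 11.76, 11.75 and 11.65 in wild-type muscle, a difference of 0.01 ± 0.18. Slc25a39, linked to mitochondrial glutathione, read 11.79, 11.92 and 12.01 in transgenic and 11.65, 11.96 and 12.25 in wild-type muscle, with overlap.

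Slc25a35, whose substrate is unsettled, read 5.84, 6.31 and 5.72 on transgenic arrays, 2 of which detected it, against 6.35, 6.93 and 7.05 on wild-type arrays. The groups did not overlap, though transgenic array 2 and wild-type array 1 nearly met. The difference was -0.95 ± 0.23 (unadjusted p = 0.00604, adjusted p = 0.569 by limma), or 1.93-fold lower, and with the deposited log2 values it was -0.36. Slc25a45 read 6.75, 7.06 and 6.32 in transgenic and 6.55, 6.88 and 6.29 in wild-type muscle. Slc25a46, which acts in mitochondrial shape at the outer membrane, differed by 0.00 ± 0.19.

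The 2 adipocyte markers measured were lower on average in transgenic muscle, and their part in the carrier values was not tested. Adipoq averaged 9.23 over transgenic arrays 1 and 2 and stood at 11.05 on transgenic array 3, against 10.74 and 11.79 for the wild-type samples. Cidec averaged 8.26 over transgenic arrays 1 and 2 and stood at 10.18 on transgenic array 3, against 10.73 and 10.62 for the wild-type samples. On transgenic array 3 Adipoq thus lay between the wild-type samples and Cidec below both. The 4 measured brown adipocyte markers, 3 of them lower in transgenic muscle, summed to 33870 and 29710 in the transgenic samples, against 42870 and 44770 in wild type. The 1 that was higher, Ppargc1a, differed by 0.21 ± 0.26. Cox7a1, a cytochrome oxidase subunit that muscle also expresses, is by far the brightest of the 4. It makes up most of each sum in both genotypes, and it differed by -0.17 ± 0.18. Ucp1, the uncoupling protein of brown fat and itself a member of the carrier family under another name, was detected on 0 of 3 transgenic and 3 of 3 wild-type arrays. Taking the dimmest detected signal as its transgenic level, it was at least 97.7-fold lower. The limma fit used the undetected transgenic readings themselves, and Ucp1 passed the filter through its wild-type arrays alone. In that fit its adjusted p was 0.00103, and it was the 1 probe of 14420 called at an adjusted p under 0.05. Cidea was at 7.33 and 7.27 in the transgenic samples, against 10.85 and 11.83 in wild type. Plin1, Lep, Retn, Fabp4, Dio2 and Elovl3 were not kept. Of the other relatives, Ucp3, the muscle uncoupling protein, differed by -0.44 ± 0.25, Mtch1 by -0.08 ± 0.19 and Mtch2 by -0.19 ± 0.20.

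Differences inside a genotype were set beside those between genotypes. The larger step between array 3 and the mean of arrays 1 and 2 exceeded the genotype difference for 21 of 29 carrier genes, or 72.4%, against 73.3% of all genes. A step is between single samples and the larger of 2 was taken, whereas a genotype difference is between means of 2. A high share is therefore built into this count even without a genotype effect, and nothing is concluded from it. The median absolute step was 0.233 in transgenic and 0.348 in wild-type muscle, and the median absolute genotype difference was 0.228. These medians are unlike measures in the same way. In wild type, Slc25a33 had the largest step, -1.15, followed by Slc25a17 at -0.64 and Slc25a22 at -0.64. Slc25a32 was at -0.55, while Slc25a25, Slc25a10 and Slc25a37 stepped the other way, at 0.62, 0.54 and 0.51. The median carrier step in wild type was -0.04, and 7 of the 29 carriers had a step over 0.5 in size. The 14 genes of the fasting and atrophy list had a median step of -1.50 in the same arrays, with Trim63, a ubiquitin ligase of muscle wasting, at 13.94 in wild-type arrays 1 and 2 and 11.94 in wild-type array 3. Their part in the carrier values was not tested.
In the transgenic group Slc25a25 had the largest step, -1.19, followed by Slc25a47 at -0.68, Slc25a22 at -0.60, Slc25a45 at -0.58 and Slc25a37 at 0.54. The slow-fibre list of 8 genes had a median step of -4.57 in those arrays, with Tnni1, slow troponin I, at 5.40 in transgenic array 3 and 11.01 in transgenic arrays 1 and 2. The median carrier step there was -0.11, and 5 of the 29 carriers had a step over 0.5. The 5 measured macrophage markers summed to 670.8 in transgenic arrays 1 and 2 and 1376 in transgenic array 3, against 681.2 and 559.2 in wild type. Whether fibre type or macrophages bear on the carrier values was not tested.

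**Figure D3:**
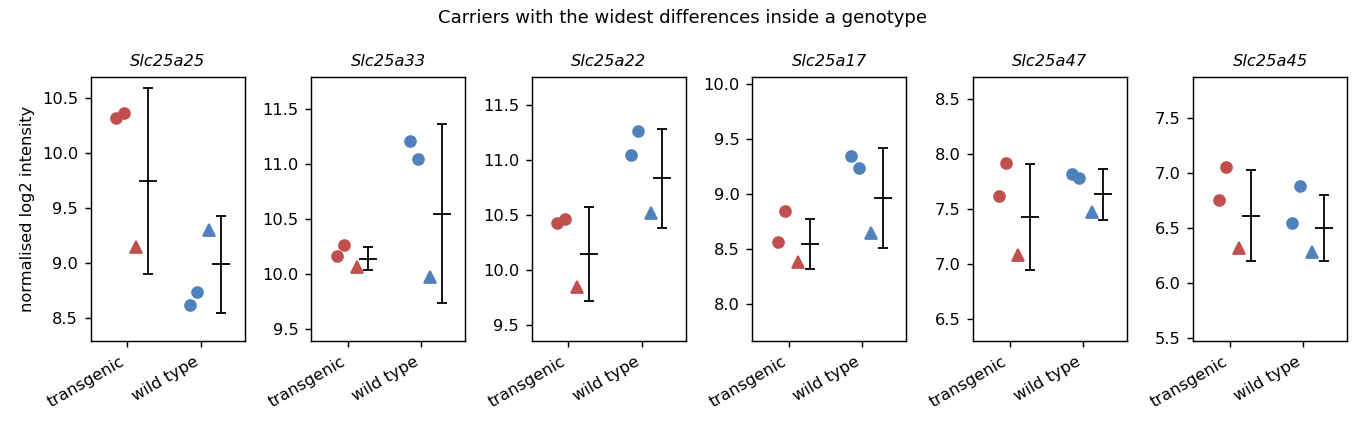
Normalised log2 intensity on each array of the 6 carriers with the widest differences inside a genotype (circles, arrays 1 and 2; triangles, array 3; bar and whiskers, mean ± SD of the 2 samples). Slc25a25 reads 9.15 on transgenic array 3, inside the wild-type range, and Slc25a33 reads 9.98 on wild-type array 3, below the transgenic arrays.

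**Figure D4:**
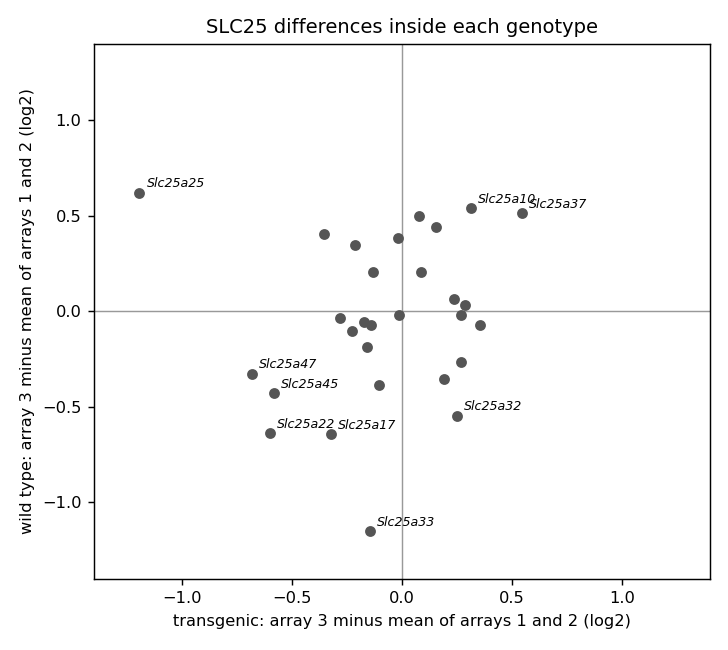
Step from the mean of arrays 1 and 2 to array 3, on the log2 scale, in transgenic (horizontal axis) and wild-type muscle (vertical axis) for the 29 carrier genes, with genes past 0.5 named. Slc25a25 lies at -1.19 and 0.62 and Slc25a33 at -0.15 and -1.15.

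No gene of the lists around the carriers passed the test, apart from Ucp1. The machinery that brings carriers into the inner membrane had 10 measured genes, 0 of which passed, with a median difference of -0.12, 3 above 0 and 7 below. Of the 10, 0 were higher and 6 lower without overlap between samples. Of all 8397 genes, 2048 were higher and 1255 lower in this way (21.6% and 18.1% of all probes). Tomm40, the pore of the outer membrane, was at 6.40 and 6.28 in the transgenic samples, against 6.88 and 6.83 in wild type (-0.52 ± 0.17, adjusted p = 0.638), and Timm10, a chaperone that guides carriers between the membranes, differed by -0.33 ± 0.21. Of 14 other mitochondrial transporters, 0 passed, with 7 above 0, 7 below and a median of -0.03. The largest difference was that of Sfxn1, a mitochondrial serine carrier of another family, at 8.68 and 9.32 in transgenic and 9.72 and 10.30 in wild-type samples (-1.01 ± 0.30, adjusted p = 0.622), and Tspo, an outer membrane protein, followed at -0.82 ± 0.20 (adjusted p = 0.569). Sfxn3, a relative of Sfxn1 named after its value was seen, differed the other way, at 10.63 and 11.00 in transgenic and 9.92 and 10.18 in wild-type samples (0.77 ± 0.21).
Enzymes that work with the carriers, such as malate dehydrogenases and aspartate aminotransferase, had a median of 0.01 over 13 measured genes, 0 of which passed. Me2, a mitochondrial malic enzyme, had the largest difference, 0.69 ± 0.19 (adjusted p = 0.585 by limma). Only 2 of 3 wild-type arrays detected it, and at 5.80 and 6.10 its wild-type samples lay close to background. Genes that track mitochondrial content, among them Cs, Cox4i1 and Atp5b, had a median of 0.04 over 10 measured genes with 0 past the threshold. Of the 10, 9 lay above 0 and 1 below, while of all 8397 genes 4825 lay above 0 and 3572 below. Without overlap between samples, 4 of the 10 were higher and 1 lower, against 2048 and 1255 of the 8397 genes (21.6% and 18.1% of all probes). The summed signal of the 10 was 242900 and 232100 in the transgenic samples, against 231600 and 226400 in wild type.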

How the data were processed

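RNA of quadriceps femoris was measured on 6 Illumina mouse bead arrays. The authors' signal table holds intensities on a linear scale, and the submitters' processing notes name BeadStudio 2.3.41. The detection p-value per the file headers rises with signal and was read as 1 minus the p-value. The authors' deposited log2 values differ between arrays as the log2 signals do, less a constant per array, to within 1.5e-06. Signal rows were displaced against the identifiers by 0 to 21 rows and were put back where their array-to-array pattern met that of the log2 values (tolerance 0.002), which placed 46611 of 46632 probes. Detection values, which took no part, then followed the signals.

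After matching in Python 3.11.15, signals were background corrected by normexp with an offset of 16 by limma 3.58.1 (the steps of neqc) in R 4.3.3. They were then quantile normalised on the linear scale, and log2 values were taken last. A probe was kept if at least 3 arrays detected it at a p under 0.05. Arrays 1 and 2 of a genotype were averaged. limma (two-sided) was fitted to all 14420 kept probes. An exact permutation test of 2 against 2 samples cannot give a p below 0.333. Gene symbols came from the platform annotation, and each gene was represented by its brightest kept probe. The fit was tested on simulated data. The small number of arrays sets the precision.

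Members, lists, averaging and tests were chosen with earlier results of these data known. Named carriers were the 8 brightest, the 8 largest differences each way, those with an unadjusted p under 0.05 and the 6 with the largest step inside a genotype. Label numbers were tested as a replicate block. Same-numbered arrays did not deviate together, so the numbers were not taken to pair the arrays.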

Additional observations from a re-analysis of the deposited data

How the results depend on the processing

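Of 34 carrier probes, 0 passed under every alternative run, leaving out any 1 array included (0 to 0), except that 1, Slc25a30, passed with 6 separate arrays. The count over all probes, 1, was 9 (offset 50), 8 (no background correction), 3 (median centring), 7 (deposited log2 values), 0 where all 6 arrays had to detect a probe, which drops Ucp1 and leaves 0 calls by limma, 10 with an intensity trend, 54 with 6 separate arrays, 13 with a random block for the RNA, 3 at adjusted p under 0.10 and from 1 to 8 when 1 array was left out, the 8 without transgenic array 3. With the label number as a replicate block, 0 carriers and 1 probe were called on the averaged samples and 0 and 15 on the 6 arrays. Deviations of same-numbered arrays correlated at 0.000456, 0.0232 and 0.0616, and at 0.0616 with arrays 1 and 2 averaged. The numbers were therefore not taken to pair the arrays, though such values cannot exclude a pairing.

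The median carrier difference of 0.002 was -0.089 with median centring, where the median of all genes was -0.035, and ran from -0.055 to 0.020 when 1 array was left out. Among the named carriers 362 of the alternative values kept direction and side of the threshold, 1 passed it and 9 changed sign, all of genes whose difference was at most 0.23 in size. Slc25a28 was -0.051 with median centring. When 1 array was left out, Slc25a28 ran from -0.045 to 0.12, Slc25a3 from -0.15 to 0.020, Slc25a14 from -0.0089 to 0.47, Slc25a39 from -0.17 to 0.12, Slc25a44 from -0.016 to 0.24, Slc25a45 from -0.10 to 0.40 and Slc25a47 from -0.37 to 0.13. Where array 3 was left out, the genotype's 1 remaining sample was assumed to vary like the other genotype. The cause was not tested. For dim probes with signal close to background, such as Slc25a1 and Slc25a35, the size of a difference depends on the background step. Their differences were -0.84 and -0.95 in the main fit, and -0.32 and -0.37 without background correction.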
